A study of Homo sapiens with 4 samples.

Results

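This section describes chromatin accessibility at 5 pancreatic homeobox genes, NKX6-1, NKX6-2, NKX6-3, NKX2-2 and MNX1, in human pancreatic progenitor (PP) cells. The labels of all 4 libraries name MEL1, an established human embryonic stem cell line, as their source, and the study's methods list it as MEL1 INS GFP/W, a line with a GFP reporter at the insulin gene. PP cells were kept in EF6, a DMEM-based medium with B27, EGF, bFGF and an inhibitor of TGFβ signaling. They received either the solvent DMSO or 1 μM I-BET151 for 7 days. I-BET151 blocks the bromodomains of BET proteins, which read acetylated histones. ATAC-seq, in which a transposase cuts and tags open chromatin, was performed on 50000 cells per library with 2 libraries per condition. The labels did not say whether the libraries of 1 condition came from separate cultures, so p-values measure only the spread between these libraries. Peaks of the 4 deposited lists were merged where they shared 1 bp or more. The members were the merged regions that overlapped 1 of the 5 genes or the 20 kb on either side, 29 of 164301 regions in all. MNX1 had 10 regions, NKX6-3 and NKX2-2 had 6 each, NKX6-1 had 4 and NKX6-2 had 3.

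NKX and MNX1 proteins are homeodomain transcription factors that bind DNA and set cell identity. NKX6-1 marks the multipotent pancreatic progenitor and is later needed in β cells, while NKX2-2 acts in endocrine progenitors and islets and MNX1 acts in the early pancreatic bud and in β cells. NKX6-2 is a close relative of NKX6-1 that can act in its place in the pancreas and also works in the neural tube, and NKX6-3 is best known from the stomach. An ATAC-seq peak marks DNA that the transposase could reach, such as a promoter or an enhancer, and does not measure transcription.

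Sequences of promoters and distal elements of NKX6-1, NKX2-2 and MNX1 are shown here so that the values can be read beside them. None is shown for NKX6-2 or NKX6-3. The promoters are the 250 bases before a RefSeq start site (GRCh38.p14, minus strand of the genome, read 5′ to 3′ along the gene) of NKX6-1 at chr4:84499293-84499542, of MNX1 at chr7:157010664-157010913 and of NKX2-2 at chr20:21522690-21522939. Of the 5 genes, 3 matched the promoter table, MNX1 and NKX2-2 with 2 entries each. The entries shown for them are those with bases in a peak. The second NKX2-2 entry, chr20:21512961-21513210, has its start site 1104 bp from the GENCODE one, nearer than the entry shown, and the second MNX1 entry is chr7:157009436-157009685. Both of these have 0 bases in a peak in all 4 lists. Capitals mark matches on either strand to short motifs. The homeobox core was searched as TAATTA. The NK2 core, the kind of site that NKX2-2 binds, was searched as TNAAGTG. Factors of the pancreatic program were searched as TGTTTAC for FOX proteins, as AGATAA for GATA proteins and as ATCGAT for ONECUT proteins. The TEAD site was searched as GGAATG and the RBPJ site as GTGGGAA. The SP/KLF site was searched as GGGCGG, and CTCF by its published motif. The MNX1 promoter held 5 SP/KLF matches, a pair of which overlap, and 1 NK2 core match, and the other two promoters held none of these motifs.
NKX6-1 promoter: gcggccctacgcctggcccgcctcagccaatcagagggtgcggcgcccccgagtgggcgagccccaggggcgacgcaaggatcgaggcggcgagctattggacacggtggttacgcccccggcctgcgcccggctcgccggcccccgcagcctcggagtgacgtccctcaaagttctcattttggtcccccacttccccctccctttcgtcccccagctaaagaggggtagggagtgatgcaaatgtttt
MNX1 promoter: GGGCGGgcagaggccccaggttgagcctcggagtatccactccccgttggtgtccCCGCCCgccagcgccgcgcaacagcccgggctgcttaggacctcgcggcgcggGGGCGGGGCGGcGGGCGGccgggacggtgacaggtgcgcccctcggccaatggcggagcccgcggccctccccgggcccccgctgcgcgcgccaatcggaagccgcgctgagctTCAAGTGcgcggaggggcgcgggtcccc
NKX2-2 promoter: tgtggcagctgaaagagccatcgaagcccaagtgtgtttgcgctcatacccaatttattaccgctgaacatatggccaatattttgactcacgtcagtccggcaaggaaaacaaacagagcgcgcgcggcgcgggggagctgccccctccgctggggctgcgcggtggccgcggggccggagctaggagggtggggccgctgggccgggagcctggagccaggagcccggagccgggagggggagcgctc

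The 4 regions present in each I-BET151 list and absent from each DMSO list are shown as the 201 bases centred on the summit (hg38, plus strand), at chr4:84479736-84479936 for NKX6-1 region 1, chr20:21529937-21530137 for NKX2-2 region 6, chr7:157011671-157011871 for MNX1 region 6 and chr7:157022819-157023019 for MNX1 region 9. The region with the highest fold enrichment of all 29, MNX1 region 2, is shown in the same way at chr7:156988648-156988848. NKX2-2 region 6 held an ONECUT, a GATA and an NK2 core match within 1 window. MNX1 region 6 held an NK2 core match, NKX6-1 region 1 a TEAD match, MNX1 region 2 a GATA match and MNX1 region 9 none of the motifs.
NKX6-1 region 1: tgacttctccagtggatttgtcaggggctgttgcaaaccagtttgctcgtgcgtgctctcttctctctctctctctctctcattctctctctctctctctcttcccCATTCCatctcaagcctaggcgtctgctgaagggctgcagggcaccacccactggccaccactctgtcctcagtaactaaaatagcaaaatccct
NKX2-2 region 6: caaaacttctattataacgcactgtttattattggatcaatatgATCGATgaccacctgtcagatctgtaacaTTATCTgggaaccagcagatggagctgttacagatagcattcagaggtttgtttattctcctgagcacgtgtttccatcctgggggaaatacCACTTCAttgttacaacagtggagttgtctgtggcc
MNX1 region 6: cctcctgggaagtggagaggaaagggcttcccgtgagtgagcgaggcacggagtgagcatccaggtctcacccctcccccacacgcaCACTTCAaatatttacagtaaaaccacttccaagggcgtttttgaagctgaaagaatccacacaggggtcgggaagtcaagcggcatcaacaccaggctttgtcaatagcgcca
MNX1 region 9: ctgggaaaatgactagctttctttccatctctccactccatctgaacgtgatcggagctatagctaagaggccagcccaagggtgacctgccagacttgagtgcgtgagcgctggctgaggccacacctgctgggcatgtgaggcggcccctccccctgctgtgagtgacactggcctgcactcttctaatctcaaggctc
MNX1 region 2: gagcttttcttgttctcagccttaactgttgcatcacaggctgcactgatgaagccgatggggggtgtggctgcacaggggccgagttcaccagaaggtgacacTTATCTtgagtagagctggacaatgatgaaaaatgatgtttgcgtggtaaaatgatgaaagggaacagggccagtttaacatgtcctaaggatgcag

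The 4 lists differed in ways that touch every value below. DMSO replicates 1 and 2 held 82568 and 38295 peaks, and I-BET151 replicates 1 and 2 held 84995 and 111324. The read numbers behind them, inferred from the genome-wide background of each list, were 38.7 and 36.6 M for DMSO and 12.5 and 16.0 M for I-BET151. Fold enrichment, which is (pileup + 1)/(local background + 1) at the summit of a peak, had a median of 3.88 and 4.08 in the DMSO lists and 5.56 and 6.03 in the I-BET151 lists. The part of depth and of library quality in these shifts was not tested. Because the whole scale of fold enrichment moved, each peak was also given its percentile within its own list, where 100 is the highest fold. A list that holds more weak peaks raises the percentile of a given peak with no change at the peak itself, and the lists were of unequal length, so percentiles within whole lists are not comparable between conditions on their own. For regions called in all 4 lists, the percentile among those 25627 shared regions, where every library ranks the same regions, is therefore given as well, a measure chosen after seeing the data. The shortest peaks, which MACS2 sets to its read extension, were 200 bp in both replicate 1 lists and 233 and 256 bp in the replicate 2 lists, so the settings may have differed between replicate numbers, which bears on pileups and on reads per M. Of 11 pancreatic progenitor markers, 5 and 6 had their start site in a peak in the DMSO lists, and 10 in each I-BET151 list. MNX1 adds to the I-BET151 counts only, although its DMSO peaks ended just upstream of the start site. The share of all start sites in a peak was not counted per list, so these counts are not read as a change of the markers. PTF1A, a defining gene of the early pancreas, had no peak there in any list. The pluripotency list reached 1 of 6 genes and the liver list 2 of 5 in every list. The pluripotency genes POU5F1 and NANOG and the liver genes ALB and AFP had no peak at the start site, while SOX2 and APOA1 had one in all 4 lists. The endocrine list reached 1 to 2 of 9 genes, the ventral neural tube list 0 to 2 of 8 and the mesenchyme list 1 to 2 of 5.

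Accessible regions at the 5 genes were more often called after I-BET151 than in DMSO, and so were regions across the genome. Of the 29 regions, 15 and 10 were called in DMSO replicates 1 and 2, against 16 and 22 in I-BET151 replicates 1 and 2. These are 51.7% and 34.5%, against 55.2% and 75.9%, of the 29, and the shares of all merged regions were 47.9% and 22.9%, against 49.2% and 67.7%. The groups did not overlap, but DMSO replicate 1 and I-BET151 replicate 1 differed by 1 region. In bulk libraries, a change in the share of cells in which a site is open and a change of accessibility within each cell cannot be told apart.

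Between conditions, 4 of the 29 regions were gained and 0 were lost, where a gained region is present in each I-BET151 list and absent from each DMSO list, and a lost region is the reverse. Across all merged regions 17.0% were gained and 2.37% were lost, so the share of gained regions at the 5 genes, 13.8%, was near the background. Of the 29 regions, 8 (27.6%) were called in all 4 lists, 3 (10.3%) in 3 lists, 4 (13.8%) in 2 lists and 14 (48.3%) in 1 list. Over all merged regions these shares were 15.6%, 8.26%, 24.4% and 51.8%. With 29 regions, no difference from all regions is read from these shares. The 4 regions called in 2 lists were the 4 gained regions, and 27885 of all 40033 regions called in 2 lists were gained. The 14 regions called in 1 list came from I-BET151 replicate 2 in 7 cases, from DMSO replicate 1 in 4, from I-BET151 replicate 1 in 2 and from DMSO replicate 2 in 1. Without I-BET151 replicate 1 the count of gained regions was 11, and without I-BET151 replicate 2 it was 10, or 40.7% and 38.5% of the regions at the 5 genes, where 43.7% and 35.8% of all regions were then gained. A region missing from a list is a peak that was not called there, and its signal in that library is unknown.

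**Figure D1:**
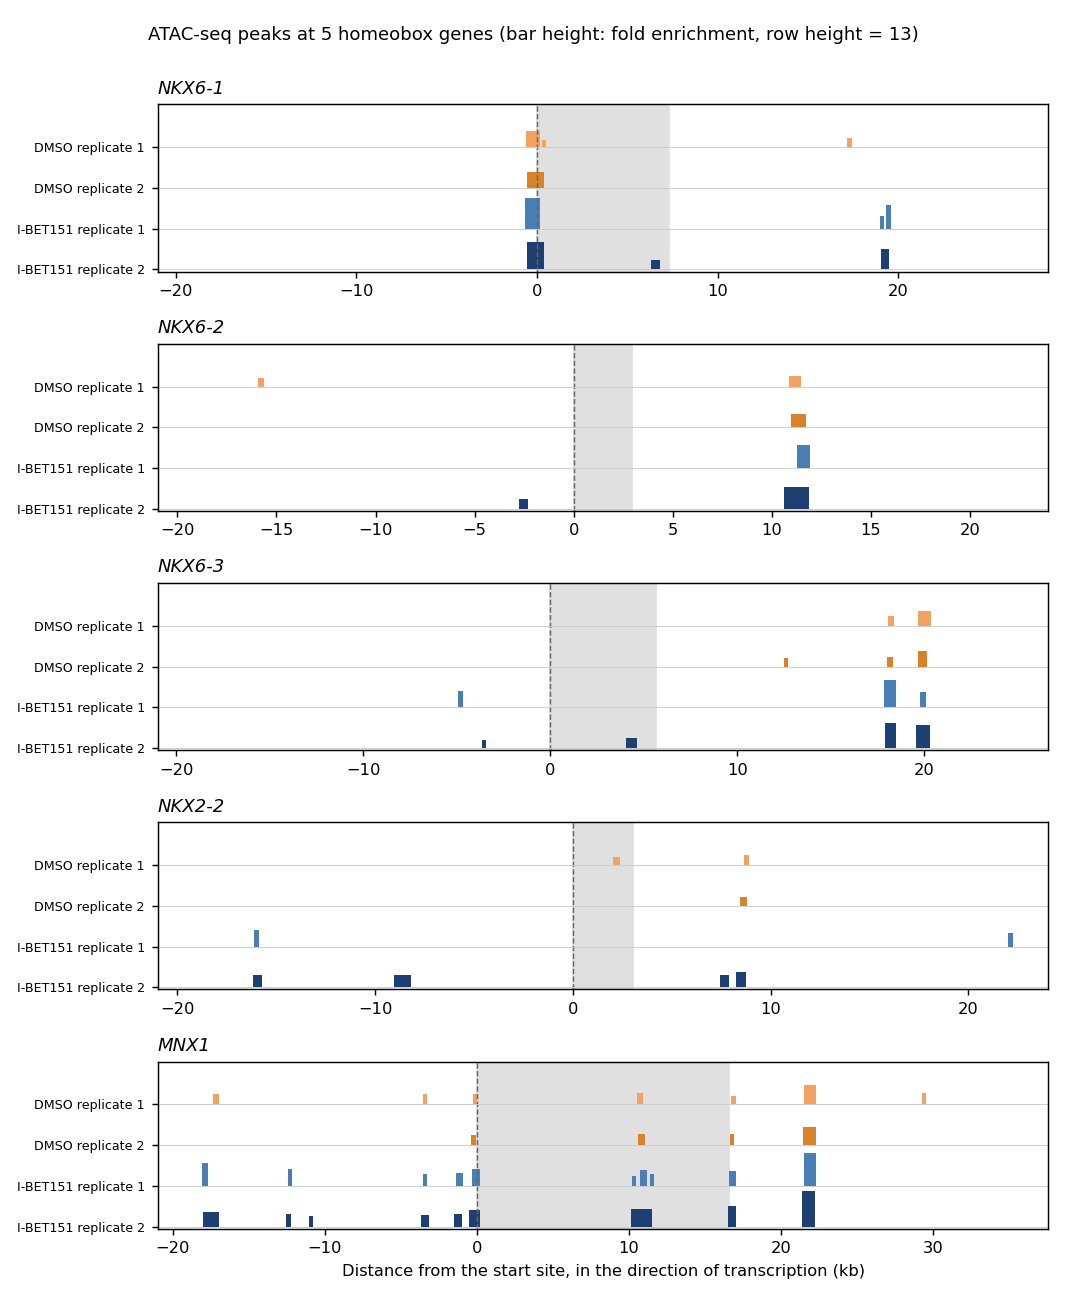
Peaks of the 4 lists (rows) at the 5 genes, by distance in kb from the GENCODE start site (dashed line) along the direction of transcription. The gene body is grey and the bar height is fold enrichment, with a row height of 13 for scale. NKX6-1 and MNX1 have peaks at the start site, and NKX6-2, NKX6-3 and NKX2-2 have none there.

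NKX6-1 had the only promoter of the 5 genes with a peak over its start site in every list. Over 20007 protein-coding genes, 51.2% of start sites lay in a region called in all 4 lists, as did those of NKX6-1 and MNX1. NKX6-1 lies on chromosome 4 at 84491985 to 84499292 on the minus strand. Region 4, chr4:84498799-84499933, covers the start site of the promoter shown above, with its summit 241 bp upstream. Its fold enrichment was 5.11 and 5.25 in DMSO replicates 1 and 2 and 9.83 and 8.69 in I-BET151 replicates 1 and 2. Both I-BET151 values were above both DMSO values, with a mean of 5.18 ± 0.0988 (SD, n = 2) in DMSO and 9.26 ± 0.806 (SD, n = 2) with I-BET151, a 1.79-fold ratio. The summit pileups were 50 and 53 reads in DMSO and 70 and 109 reads with I-BET151. Per M inferred reads they were 1.29, 1.45, 5.62 and 6.81. Its percentile was 80.3, 74.7, 87.7 and 76.1 within the whole lists and 48.9, 64.0, 65.9 and 33.9 among shared regions, and the groups overlapped in both. By limma on the normal scores of the rank among regions called in all 4 lists, the rank effect was -0.17 (SE 0.41, adjusted p = 0.835).

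The other NKX6-1 regions were weaker and each lay away from the promoter. Region 1, chr4:84479726-84480287, was gained and lies in intergenic sequence, with its summit 19456 bp downstream of the start site. It had a fold of 7.67 with 22 reads in I-BET151 replicate 1 and a fold of 6.64 with 23 reads in I-BET151 replicate 2, which placed it at percentiles 75.2 and 57.1. In each I-BET151 list this was the highest fold of the 4 gained regions. Its 1.77 and 1.44 reads per M were above the smallest pileups that were called at genome-wide background in the DMSO lists, 0.259 and 0.301 reads per M. The comparison is uneven, since local background at the region was 2.17 and 1.72 times the genome-wide one in the I-BET151 lists. Reads per M were also higher with I-BET151 in 97.4% of shared regions. The comparison therefore does not show whether such a signal would have been called in DMSO. Region 2 was called in DMSO replicate 1 with a fold of 2.81, and region 3, in the exon 3 UTR, in I-BET151 replicate 2 with a fold of 3.15.

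NKX6-2 had no peak at its start site in any list, and its nearest summit lay 2625 bp away. The gene lies on chromosome 10 at 132783179 to 132786147 on the minus strand, next to INPP5A, whose body overlaps it. Region 1, chr10:132774194-132775512, was called in all 4 lists and lies 11442 bp downstream, in intron 12 of INPP5A. Its fold was 3.49 and 4.14 in DMSO and 7.29 and 7.11 with I-BET151. The groups did not overlap in fold, with a ratio of means of 1.89. Among shared regions its percentile was 9.62 and 36.7 in DMSO and 37.5 and 17.0 with I-BET151, so the groups overlapped in rank, while within the whole lists it was 32.1 and 52.7 against 72.4 and 62.2. Its pileups were 39, 45, 27 and 50 reads, and its local background was 10.5 and 10.1 reads in DMSO and 2.84 and 6.17 with I-BET151. The rank effect by limma was 0.19 (SE 0.43, adjusted p = 0.824), which did not pass the test. The remaining regions were called once each, region 2 in I-BET151 replicate 2 with a fold of 3.13 and region 3 in DMSO replicate 1 with a fold of 2.71.

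NKX2-2 had no region in all 4 lists and no peak over its GENCODE start site. The gene lies on chromosome 20 at 21511017 to 21514064 on the minus strand. Region 2, chr20:21505169-21505826, lies 8637 bp downstream and was called in both DMSO lists, with folds of 3.34 and 2.86, and in I-BET151 replicate 2, with a fold of 4.86. Its pileups were 23 and 20 reads in DMSO and 16 reads in I-BET151 replicate 2. Region 5, chr20:21522263-21523125, covers the upstream promoter printed above and was called in I-BET151 replicate 2, with a fold of 3.85 over 10 reads. A peak of 10 reads in 1 of 2 libraries gives no replicated difference.

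The gained region of NKX2-2 was region 6, chr20:21529808-21530248, with its summit 15973 bp upstream of the start site. Its fold was 5.20 in I-BET151 replicate 1 and 3.97 in I-BET151 replicate 2, over 9 reads in each, at percentiles 43.7 and 14.5. In reads per M these were 0.722 and 0.563, on a local background equal to the genome-wide one in both lists. Its window is the one with ONECUT, GATA and NK2 core matches shown above. Regions 1, 3 and 4 were called in 1 list each, with folds of 4.41, 3.97 and 2.55 and pileups of 8, 13 and 18 reads, and region 4 lies in the exon 2 UTR of NKX2-2 within an intron of the antisense gene NKX2-2-AS1.

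MNX1 had the most regions of the 5 genes, and 4 of its 10 were called in all 4 lists. The gene lies on chromosome 7 at 156994051 to 157010663 on the minus strand. Region 2, chr7:156988315-156989272, lies 21915 bp downstream of the start site and had the highest fold of all 29 regions in every list, at 6.34 and 5.82 in DMSO and 10.5 and 11.5 with I-BET151. The groups did not overlap, and the ratio of means was 1.81. Its pileups of 63, 58, 67 and 132 reads were also the highest in DMSO and in I-BET151 replicate 2. In rank it was near the top of each list, at percentiles 90.9, 82.0, 90.2 and 90.5, and the groups overlapped. Among shared regions it stood at 72.6 and 74.2 in DMSO and 71.8 and 66.1 with I-BET151, both of the latter slightly lower. The rank effect was -0.13 (SE 0.38, limma adjusted p = 0.866).

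The MNX1 promoter was called in all 4 lists but at unequal width. Region 5, chr7:157010434-157011144, held peaks of 258 and 337 bp in DMSO, which ended upstream of the start site, and peaks of 547 and 696 bp with I-BET151, which covered it. Its fold was 3.27 and 3.22 in DMSO and 5.47 and 5.37 with I-BET151. The groups did not overlap in fold, with means of 3.24 ± 0.0356 (SD, n = 2) and 5.42 ± 0.0712 (SD, n = 2). Among shared regions its percentile was 5.89 and 9.28 in DMSO and 15.6 and 4.90 with I-BET151, so the groups overlapped in rank, although within the whole lists it was 21.3 and 19.2 against 49.1 and 39.3. Its rank effect of 0.11 (SE 0.39) did not pass the test (limma adjusted p = 0.891). Fold enrichment here sits on a high local background of 10.9, 10.8, 7.22 and 14.1 reads, so that 38, 37, 44 and 80 reads gave moderate folds. The promoter printed above lies within this region, and its base composition was 78.8% GC.

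MNX1 regions 3 and 4 were the remaining regions called in every list. Region 3, chr7:156993624-156994107, lies at the 3′ end of the gene, and its fold was 2.77 and 3.47 in DMSO and 4.83 and 6.59 with I-BET151. Region 4, chr7:156999039-157000501, lies in the annotated gene but outside its canonical transcript, and its fold was 3.81 and 3.64 in DMSO and 5.03 and 5.72 with I-BET151. In fold both I-BET151 values were above both DMSO values at each region. Among shared regions the percentiles of region 3 overlapped, at 0.911 and 15.5 in DMSO and 8.84 and 12.7 with I-BET151. Those of region 4 were lower in both I-BET151 lists, at 16.3 and 20.8 against 10.7 and 6.92. The limma adjusted p of the rank effect was 0.570 for region 3 and 0.468 for region 4.

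Upstream of MNX1, 2 regions were gained. Region 6, chr7:157011544-157012169, lies in intron 1 of the antisense gene MNX1-AS1 with its summit 1108 bp upstream, and had folds of 4.29 and 4.13 over 35 and 64 reads. Region 9, chr7:157022812-157023212, is intergenic, 12256 bp upstream, and had folds of 5.28 and 4.11 over 18 and 21 reads. Region 6 is the gained region with the most reads, on a local background of 7.40 and 14.7 reads. Regions 7 and 10 were called in every list but DMSO replicate 2, the shortest list. Region 7 had folds of 3.21 in DMSO replicate 1 and of 3.88 and 3.84 with I-BET151. Region 10 had folds of 3.31 in DMSO replicate 1 and of 7.35 and 4.85 with I-BET151. Its DMSO replicate 1 peak, 157027645 to 157028001, and its I-BET151 replicate 1 peak, 157028318 to 157028742, did not overlap. Only the I-BET151 replicate 2 peak joined them, so the folds of 3.31 and 7.35 belong to different sites. Regions 1 and 8 were called once each, in DMSO replicate 1 with a fold of 3.62 and in I-BET151 replicate 2 with a fold of 3.29.

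**Figure D2:**
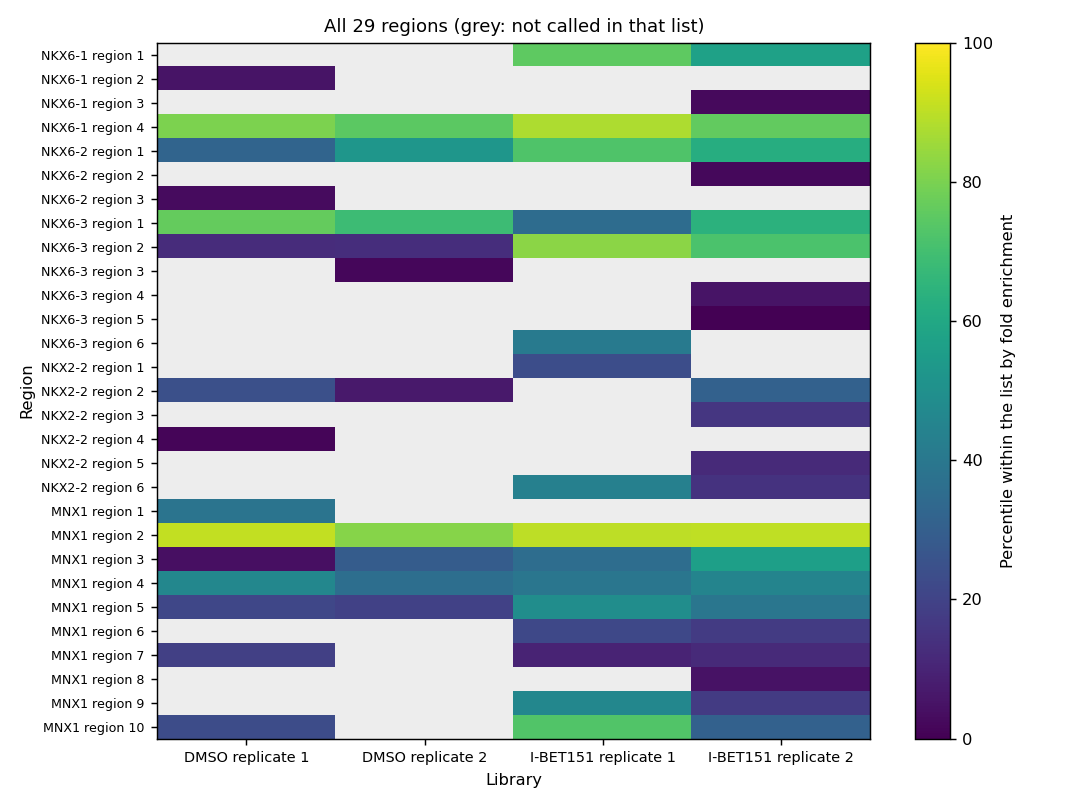
Percentile of each of the 29 regions (rows) within each list (columns) by fold enrichment, from 0 to 100, with grey where the region was not called. MNX1 region 2 is above 80 in all 4 lists and NKX6-1 region 4 above 74, while NKX6-3 region 2 is dark in both DMSO lists and bright in both I-BET151 lists. Percentiles also depend on the length of each list.

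NKX6-3 held the 1 region, of the 8 that could be tested, whose rank rose with I-BET151. The gene lies on chromosome 8 at 41645177 to 41650817 on the minus strand, and no list had a peak at its start site. Region 2, chr8:41632307-41632994, is intergenic, 18166 bp downstream. Its fold was 3.06 in both DMSO replicates and 8.82 and 8.10 in I-BET151 replicates 1 and 2, over 23, 22, 35 and 51 reads. Its percentile was 12.8 and 13.3 in DMSO against 82.8 and 71.7 with I-BET151 within the whole lists, and 3.25 and 6.10 against 55.5 and 27.1 among shared regions. The groups did not overlap in either, and the ratio of mean folds was 2.76, the largest of the 8 shared regions. The rank effect was 1.46 (SE 0.40, limma adjusted p = 0.0462), close to the threshold of 0.05. Leaving out DMSO replicate 1, DMSO replicate 2 or I-BET151 replicate 1 in turn left 0 regions up, and so did ranking by −log10 p.

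The neighboring NKX6-3 region 1, chr8:41630470-41631248, went the other way in rank. Its fold was 4.85 and 4.83 in DMSO and 4.81 and 7.25 with I-BET151, and it was the only one of the 8 shared regions whose groups overlapped in fold. Its percentile was 76.4 and 68.6 in DMSO and 35.4 and 64.2 with I-BET151 within the whole lists, and 42.6 and 55.8 against 8.64 and 18.5 among shared regions, so both I-BET151 values were lower. The rank effect of -1.11 (SE 0.39) did not pass the test (limma adjusted p = 0.0974). Local background was alike at both regions, at 6.84 and 6.66 reads in DMSO and 3.16 and 5.48 with I-BET151 for region 1 and at 6.84 and 6.51, and 3.08 and 5.42, for region 2. The remaining 4 NKX6-3 regions were called in 1 list each with folds of 2.56 to 5.13, region 4 in exon 3 of the coding sequence and regions 5 and 6 in a UTR exon of ANK1, whose body lies 2403 bp from NKX6-3.

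**Figure D3:**
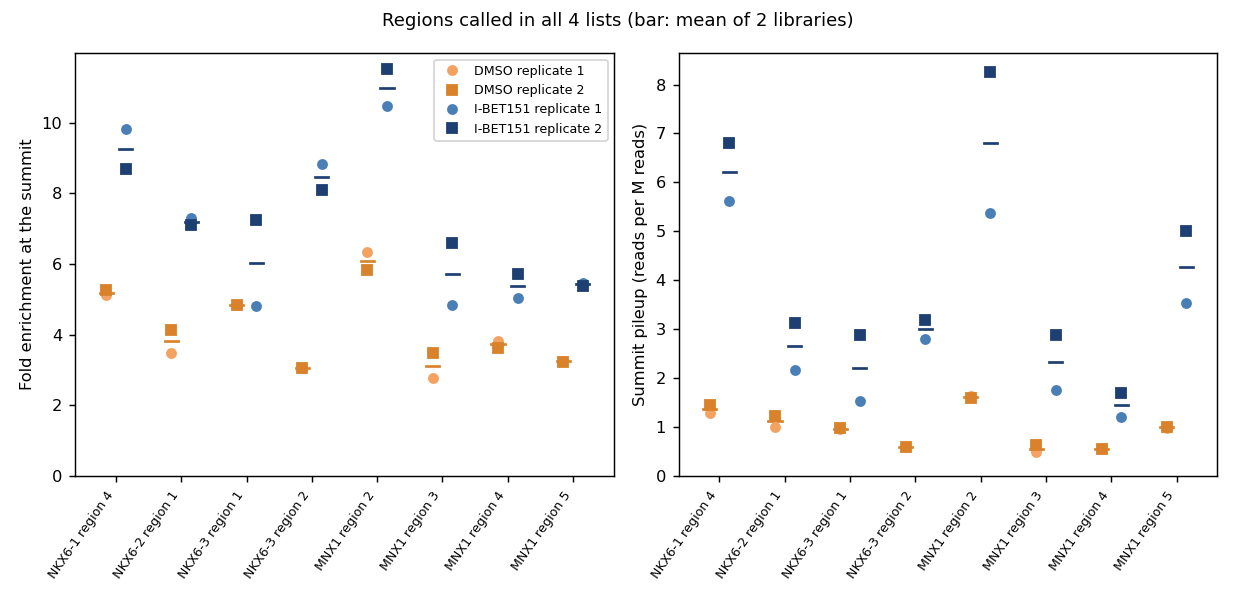
Fold enrichment (left axis panel) and summit pileup in reads per M inferred reads (right panel) of the 8 shared regions, with a point per library and a bar at the mean of 2 libraries. The I-BET151 points lie above the DMSO points in 7 of the 8 regions by fold and in all 8 by reads per M.

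Across the 8 shared regions, 1 was up in rank and 0 were down, where 3.41% of 25627 shared regions were up and 1.96% were down. Unadjusted p was under 0.05 for 6372 of the 25627. Fold in both I-BET151 lists was above both DMSO lists in 7 of the 8, beside 90.1% of all shared regions, and below in 0, beside 0.242%. Reads per M were higher in 8 of 8, beside 97.4%. Percentiles within the whole lists were above in 4 of 8 (NKX6-2 region 1, NKX6-3 region 2, MNX1 regions 3 and 5), beside 40.8%, and below in 1 of 8 (NKX6-3 region 1), beside 10.3%. Percentiles among shared regions were above in 1 of 8 (NKX6-3 region 2), beside 27.1%, and below in 3 of 8 (NKX6-3 region 1, MNX1 regions 2 and 4), beside 28.1%. With 8 regions these counts are coarse, and none is read as a difference from all shared regions.

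The size of the change at the shared regions lay around that of all shared regions. Over all shared regions the median log2 change of reads per M was 1.57 between replicates 1 and 2.25 between replicates 2, and that of fold was 0.66 and 1.03. The NKX6-1 promoter changed by 2.12 and 2.23 in log2 reads per M, and the MNX1 promoter by 1.85 and 2.31. MNX1 region 2 changed by 1.72 and 2.38. NKX6-3 region 2 changed by 2.24 and 2.41, and NKX6-3 region 1 changed by 0.67 and 1.55, below the median in both pairs. NKX6-2 region 1, at 1.10 and 1.35, and MNX1 region 4, at 1.08 and 1.63, were also below the median in both pairs. In log2 fold the NKX6-1 promoter changed by 0.94 and 0.73 and the MNX1 promoter by 0.75 and 0.74. Between replicates 1, only NKX6-3 region 1 (-0.01) and MNX1 region 4 (0.40) were below the median fold change of 0.66. Between replicates 2, only NKX6-3 region 2 (1.40) was above the median of 1.03.

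A locus score, the mean percentile over all regions of a gene with 0 where a region was not called, summarised each gene in each library. NKX6-1 scored 21.4 and 18.7 in DMSO and 40.7 and 33.9 with I-BET151, a difference of 17.3. MNX1 scored 24.3 and 16.6 against 36.5 and 31.4, a difference of 13.5. NKX6-3 scored 14.9 and 13.9 against 26.5 and 23.5, a difference of 10.6. The groups overlapped for none of these genes. NKX2-2 had the lowest scores, 4.28 and 1.16 against 11.2 and 12.3, and differed by 9.02, and NKX6-2 had 11.7 and 17.6 against 24.1 and 21.5 and differed by 8.17. The exact permutation test gave p = 0.33 for each gene, the smallest that 2 against 2 libraries allow. Over 18865 protein-coding genes with a region the median difference was 10.7 and 82.8% were higher with I-BET151, so NKX6-1 and MNX1 were above this median and NKX2-2 and NKX6-2 below it. With the 38295 strongest peaks of each list, NKX6-1 stayed higher, by 3.91, and the sign turned for MNX1, NKX6-3, NKX2-2 and NKX6-2. The direction of these 4 scores therefore differed with the peaks that were kept, and the cause was not tested.

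Other genes of the pancreatic program were counted from a list of 36 transcription factors. They had 468 regions, of which 99 (21.2%) were gained and 12 (2.56%) were lost, beside 17.0% and 2.37% of all regions. Of their 97 shared regions, 4 (4.12%) rose and 5 (5.15%) fell in rank by limma, beside 3.41% and 1.96% of all shared regions, and no difference from all regions is read from these counts. The regions that rose lay at PDX1 (adjusted p = 0.0150), a master regulator of the pancreas, ISL1 (adjusted p = 0.0206), an islet factor, TCF7L2 (adjusted p = 0.0326) and PROX1 (adjusted p = 0.0443), by limma. Those that fell lay at HES1 (adjusted p = 0.0189), a Notch target, HNF4G (adjusted p = 0.0429) and GLIS3, the last with 3 regions, by limma. Fold was 2.43 and 2.37 in DMSO and 5.66 and 5.71 with I-BET151 at the PDX1 region, and 2.91 and 3.25 against 10.0 and 9.86 at the ISL1 region. At the HES1 region it was 4.21 and 3.94 against 3.16 and 4.66, so its groups overlapped in fold while its rank fell. The groups also overlapped in fold at the HNF4G region, at 5.98 and 6.06 against 5.95 and 7.45. They did so at each of the 3 GLIS3 regions that fell. Differences of locus score were higher in 33 of 36 genes, with a median of 10.9, and 7 of 10 other NKX genes were higher, with a median of 10.4. The 5 homeobox genes had a median of 10.6. MAFA, a factor of mature β cells, with 37.4, ISL1 with 28.5 and RBPJL, an acinar factor, with 27.3 had the largest differences, and NKX2-8 with -14.2, NKX1-1 with -10.1 and INSM1, an endocrine factor, with -7.69 had the smallest. The 10 other NKX genes had 24 regions, with 6 gained (25%, beside 17.0% of all regions), 0 lost and 0 of 5 shared regions changed in rank.

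The 2 promoters called in every list could be set beside other promoters by their percentiles. Among 10246 genes with a promoter region in all 4 lists, UBE2R2, LNX2 and POLR1D were nearest to NKX6-1, at Euclidean distances of 2.40, 3.02 and 3.02 percentile units over the 4 lists. LNX2 and POLR1D share 1 region. Within 10 units of NKX6-1 lay 187 genes. TRNP1, ISM2 and ERBB4 were nearest to MNX1, at 4.17, 9.40 and 9.48, and 4 genes lay within 10 units of it.

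The regions at the 5 genes were richer in GC and CpG than regions in general. Their median GC content was 57.3% against 47.0% over all merged regions, their median CpG observed over expected ratio was 0.436 against 0.185, and their median width was 530 bp against 405 bp. Regions called in 1 list had a median CpG ratio of 0.684, and regions called in all 4 lists 0.433. The SP/KLF motif lay in 12 of the 29 windows of 201 bases at the summits, beside 10.6% of all windows and 42.6% of 35116 RefSeq promoters. NK2 core matches lay in 5 windows, beside 10.4% of all windows and 8.73% of promoters. An ONECUT match lay in 1 window, beside 0.606% of windows and 0.655% of promoters.

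GATA matches lay in 3 windows, beside 14.3% of windows and 9.17% of promoters, and TEAD matches in 2, beside 15.0% and 11.9%. The homeobox core lay in 0 of the 29 windows, beside 4.67% of all windows and 4.35% of promoters. FOX and RBPJ also had 0 matches, beside 4.64% and 4.88% of all windows and 2.98% and 5.43% of promoters, and so did CTCF, beside 3113 of 164301 windows and 0.427% of promoters. No match says only that these letters are not in the window. The NK2 core windows were those of NKX6-1 region 3, NKX6-3 region 2, NKX2-2 region 6 and MNX1 regions 5 and 6.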

How the data were processed

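ATAC-seq libraries of PP cells were compared between DMSO and I-BET151, with 2 libraries per condition taken from the sample titles. The authors used Bowtie2 (v2.2.5) for alignment to hg38, discarded duplicate and mitochondrial reads, and ran MACS2 (v2.1.2) separately for every library. Each deposited list holds a display score (not used), a fold enrichment (a ratio, summit over local background), a −log10 p-value and a −log10 q-value. The methods state a p-value threshold of 1e-05 and an extension of 200 bp. The deposited lists reach down to a −log10 q of 1.30, and the shortest peaks, taken as the extension, were 200, 233, 200 and 256 bp, so the settings may have differed between replicate numbers.

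Autosomal, X and Y peaks were merged at 1 bp and assigned to GENCODE release 44 genes with 20 kb on each side. Pileup and local background were solved from fold and p-value, which gave whole reads for 100% of peaks within 0.001 of −log10 p. Read numbers follow from the genome-wide background, the extension and the default genome size of MACS2, and they are inferred. The smallest pileup called at genome-wide background was 10 and 11 reads in DMSO and 5 and 6 reads with I-BET151. Per M inferred reads these were 0.259, 0.301, 0.401 and 0.375. The part of depth in the calling of weak peaks was not tested, and counting error is not in the SD of 2 libraries.

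Ranks by fold of regions called in all 4 lists were turned into normal scores and tested with limma 3.58.1 (R 4.3.3), with Benjamini-Hochberg adjustment over 25627 regions. Locus scores were compared with a two-sided exact permutation test. Merging, pileup solving and limma were tested on simulated data. Python 3.11.15, numpy 2.4.6, scipy 1.17.1, pandas 2.3.3, pysam 0.24.0 and matplotlib 3.10.9 were used. The members, gene lists, marker lists and motifs were chosen with earlier results of these data known. Named were the 5 genes with every region called in at least 2 lists, listed genes whose region passed the rank test, the 3 highest and 3 lowest differences of locus score, the 3 promoters nearest to each called promoter, and protein-coding genes within 20 kb. Regions called in 1 list were added after their values were seen.

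Alternatives were a −log10 p of at least 5 or 10, the same number of peaks from each list, a 50% overlap for merging, windows of 5 and 50 kb, ranks by −log10 p, reads per M or fold in place of ranks, each library left out, and a replicate block. Percentiles among shared regions, centred reads per M and a crossed block were added after seeing the data. Samples carry replicate numbers that the labels do not explain. The 2 numbers differ in shortest peak and in the form of the titles, so they may mark separate runs, each with 1 library per condition.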

Additional observations from a re-analysis of the deposited data

How the results depend on the processing

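With equal numbers of peaks per list the locus score differences turned to -5.65 for MNX1, -3.49 for NKX2-2, -6.95 for NKX6-2 and -8.86 for NKX6-3. That of NKX6-1 stayed positive under 12 of 12 alternatives (2.78 to 33.8). The replicate block, counted among the 12, does not enter the locus score and could not change it. The cause of the sign changes was not tested. NKX2-2 had no region left at a −log10 p of at least 10. Gained regions numbered 4 (13.8%) in the comparison reported, beside 17.0% of all regions. They numbered 0 with equal numbers of peaks, beside 9.69%, and 1 (7.14%) in the window of 5 kb, beside 17.0%. At a −log10 p of at least 10 there were 5 (38.5%), beside 23.3%. When a library was left out there were 4 to 11, with 11 without I-BET151 replicate 1 and 10 without I-BET151 replicate 2. Those were 40.7% and 38.5% of the members, beside 43.7% and 35.8% of all regions. Lost regions numbered 0 in the comparison reported. They numbered 1 (8.33%) with equal numbers of peaks, beside 6.03% of all regions, and 1 (2.04%) in the window of 50 kb, beside 2.37%. When a library was left out they numbered 0 to 4 (1 without DMSO replicate 1, 4 without DMSO replicate 2, 1 without I-BET151 replicate 2). Over all regions 4.56%, 20.9% and 5.82% were lost in those settings, and 4.00%, 14.3% and 3.85% of the members. The 1 region up in rank became 0 at a −log10 p of at least 10, with equal numbers of peaks, in the window of 5 kb, when ranked by −log10 p and after centring log2 reads per M. It became 8 with log2 reads per M and 7 with log2 fold in place of ranks, where the whole scale shift counts, and 0 to 1 when a library was left out. Regions down in rank numbered 0 in the comparison reported and 0 to 1 when a library was left out (1 without I-BET151 replicate 2). Over all shared regions, 875 were up and 503 down by rank, 8 and 27 when ranked by −log10 p, 24614 and 16 by log2 reads per M, 19604 and 22 by log2 fold, and 174 and 1188 after centring. Same-numbered libraries deviated with a correlation of -0.143, so they did not deviate together, but this does not show that the numbers carry no batch. The replicate block, with 985 up and 652 down, left the members at 1 up and 0 down. A crossed replicate block, also chosen once the data had been seen, called 1985 regions up and 1567 down, with 1 member down.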

Other observations

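Further out, from 20 to 100 kb beyond the 5 genes, 55 more regions were called, 9 of them in all 4 lists. Of these 55, 9 (16.4%) were gained and 2 (3.64%) were lost, beside 17.0% and 2.37% of all merged regions. Of the 9 called in all 4 lists, 0 passed the rank test by limma in either direction. Over all shared regions 3.41% were up and 1.96% were down, and no difference from all regions is read from these counts. NKX6-1 had 3 of the gained regions. The pair at chr4:84418079-84418633 and chr4:84420089-84420733, 80964 and 78757 bp downstream of its start site, had folds of 6.45 and 7.19, and of 7.08 and 7.81, in I-BET151 replicates 1 and 2, over 31 and 42 and over 33 and 44 reads. These pileups were higher than those of the gained region closer to NKX6-1. MNX1 had 2 gained regions and 1 lost region at this distance, NKX6-3 had 3 and 1, and NKX6-2 had 1 gained region in intron 11 of INPP5A, with folds of 4.51 and 6.21. NKX2-2 had 3 regions in this range and none of them was gained or lost.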
